A study of Mus musculus with 10 samples.

Results

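The genes described here encode the presynaptic machinery that stores neurotransmitter in vesicles and releases it. They were a list of 41 genes in 6 roles. The list was drawn up by gene function, but with earlier results of these data known. Each gene was read from the probe set that carried its symbol alone, or from the brightest such probe set on average where several did. Values were available for 40 of the 41 genes among 19938 genes tested. The gene left over was Vamp2, whose probe set carries 2 symbols.

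At a presynaptic terminal, synaptic vesicles dock at the active zone, a protein scaffold opposite the receiving cell. SNARE proteins on the vesicle and on the plasma membrane zip together and fuse the membranes when a synaptotagmin on the vesicle senses calcium. NSF and its SNAP adaptors then take the SNARE complexes apart, and the vesicle membrane is recovered by endocytosis and refilled.

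RNA from mouse neurons of strain 129Sv-C57Bl/6, labelled as terminally differentiated, was hybridised to Affymetrix whole-transcript arrays. One group of 5 arrays came from neurons given SP600125, a compound used to block JUN N-terminal kinases, at 25 µM in 3 doses with 2 hours between doses, and the other 5 from neurons given the solvent DMSO on the same schedule. Replicates carry the letters a to e. Replicates a and b were treated from drug batch 1, and c, d and e from drug batch 2, so a difference between the drug lots cannot be told apart from one between those replicates. The labels call the replicates biological but name no separate cultures, so the p-values measure the spread between these samples, and the number of arrays limits the precision. The sources used here do not give the cells from which the neurons were made.

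All values are log2 array signals as deposited, and a change is SP600125 minus DMSO on that scale. Neuron markers were bright on every array: the mean of 10 such genes lay between 8.73 and 9.10 in DMSO and between 8.39 and 8.94 in SP600125. Markers of other cells had signal too. Their DMSO means were 8.68 to 8.72 for neural progenitors, 8.27 to 8.34 for astrocytes and 7.97 to 8.08 for fibroblasts and endothelium. Those of the oligodendrocyte lineage (6.90 to 6.99) and of microglia (4.41 to 4.60) were lower. Correlations between arrays over all probe sets ran from 0.976 to 0.993, and the 2 most alike arrays were on average 0.16 apart per probe set. As a gauge of dim signal, 1027 olfactory receptor genes had a median of 3.75 and a 95th percentile of 5.42, and Synpr, at a mean of 4.67, was the one presynaptic gene under that percentile.

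The b arrays stood apart from the others of their groups for these genes. Relative to the mean of the 5 DMSO arrays, the median presynaptic gene lay at -0.25 on DMSO b, against -0.00 on DMSO a and 0.07 to 0.09 on DMSO c, d and e. On SP600125 b it lay at -0.18, against -0.63 on SP600125 a and -0.57 to -0.49 on SP600125 c, d and e. DMSO b was thus the lowest DMSO array and SP600125 b the highest SP600125 array, and the pair lay close together between the groups. Nes, the neural progenitor filament gene nestin, was 7.71 on DMSO b and 6.41 on SP600125 b. Its other DMSO values were 7.84 to 7.97 and its other SP600125 values 6.44 to 6.68, so for Nes both b arrays lay on the side of their labels. Results are therefore given with and without the b arrays.

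Promoters are shown for 6 of the genes to place the values beside regulatory sequence. Cplx1 changed by -0.73, Syn1 by -0.58, Syt11 and Vamp1 by -0.50 and Napa by -0.28, where the median presynaptic gene changed by -0.47. Sypl did not pass the test. Each is the 250 bases before the annotated start, read 5′ to 3′ in the direction of the gene, from RefSeq on GRCm38.p6. Capitals mark a match, on either strand, to CCAAT (bound by NF-Y), TGANTCA (AP-1, the JUN and FOS dimer), TGACGTCA (the cAMP response element) or GGGCGG (the GC box). These motifs do not overlap each other in letters, and a match on the reverse strand reads ATTGG or CCGCCC. The windows are Cplx1 at chr5:108550028-108550277 on the minus strand, Syt11 at chr3:88772600-88772849 on the minus strand, Syn1 at chrX:20920919-20921168 on the minus strand, Vamp1 at chr6:125215331-125215580 on the plus strand, Napa at chr7:16098330-16098579 on the plus strand and Sypl, the first of 2 entries, at chr12:32953695-32953944 on the plus strand.
Cplx1: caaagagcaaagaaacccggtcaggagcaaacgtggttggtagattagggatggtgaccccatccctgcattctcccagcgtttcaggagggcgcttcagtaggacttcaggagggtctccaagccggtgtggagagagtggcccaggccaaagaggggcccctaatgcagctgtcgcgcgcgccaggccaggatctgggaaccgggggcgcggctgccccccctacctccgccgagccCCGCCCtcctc
Syt11: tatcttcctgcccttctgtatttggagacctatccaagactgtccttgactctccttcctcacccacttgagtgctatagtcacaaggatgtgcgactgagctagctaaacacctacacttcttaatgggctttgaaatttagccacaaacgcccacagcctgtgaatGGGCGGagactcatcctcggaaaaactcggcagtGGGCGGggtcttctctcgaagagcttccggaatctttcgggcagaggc
Syn1: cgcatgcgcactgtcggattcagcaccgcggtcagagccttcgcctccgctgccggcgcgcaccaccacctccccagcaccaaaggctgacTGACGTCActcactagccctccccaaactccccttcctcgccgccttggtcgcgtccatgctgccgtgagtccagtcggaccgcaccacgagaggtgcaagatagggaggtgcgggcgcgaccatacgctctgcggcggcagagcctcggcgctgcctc
Vamp1: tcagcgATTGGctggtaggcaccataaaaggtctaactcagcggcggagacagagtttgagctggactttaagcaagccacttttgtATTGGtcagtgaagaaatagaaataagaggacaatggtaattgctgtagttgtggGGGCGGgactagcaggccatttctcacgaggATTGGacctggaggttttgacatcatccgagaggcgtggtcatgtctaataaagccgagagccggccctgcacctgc
Napa: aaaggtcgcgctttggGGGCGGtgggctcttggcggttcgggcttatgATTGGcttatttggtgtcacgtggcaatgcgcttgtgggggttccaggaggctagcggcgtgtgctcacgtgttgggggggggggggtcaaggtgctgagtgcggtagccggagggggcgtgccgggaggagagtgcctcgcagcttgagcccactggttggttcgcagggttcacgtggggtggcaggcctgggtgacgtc
Sypl: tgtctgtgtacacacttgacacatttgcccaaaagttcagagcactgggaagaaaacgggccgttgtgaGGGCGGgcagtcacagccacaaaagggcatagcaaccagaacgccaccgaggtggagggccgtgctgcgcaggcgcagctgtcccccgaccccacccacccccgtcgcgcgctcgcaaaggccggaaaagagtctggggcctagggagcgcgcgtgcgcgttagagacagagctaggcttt

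In these windows, Cplx1 held 1 GC box, 11 to 6 bases before the start, and Syt11 held 2. The Syn1 window held a cAMP response element 159 to 152 bases before the start. Vamp1 had 3 CCAAT boxes on the reverse strand and 1 GC box, Napa had 1 of each, and Sypl had 1 GC box. Of the measured genes, 32 had promoter entries, 41 in all, and Syt4, Rims2, Syt7, Syngr3, Snap25, Doc2b, Syt5 and Syn3 had none in the table used. A GC box lay in 58.5% of the 41 entries and in 32.7% of all 32851 promoter entries of the same length. CCAAT lay in 19.5% against 33.8%, TGANTCA in 7.32% against 6.75% and TGACGTCA in 2.44% against 1.55%. These shares are a description, and a match is not a binding site.

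Presynaptic transcripts were lower after SP600125 in all 6 roles. Of the 40 genes, 35 fell and 0 rose at a Benjamini-Hochberg adjusted p under 0.05 over all genes (limma with drug batch as a term). Over all genes tested, 29.9% fell and 17% rose. The median change was -0.47 for the presynaptic genes and -0.03 for all genes, and single genes ranged from -0.78 for Napb to 0.11 for Doc2b. Without the b arrays 36 genes fell, with a median of -0.61, against 31.6% lower and 17.1% higher of all genes. In RNA from whole cultures, fewer presynaptic neurons and less of these transcripts per neuron cannot be told apart.

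**Figure D1:**
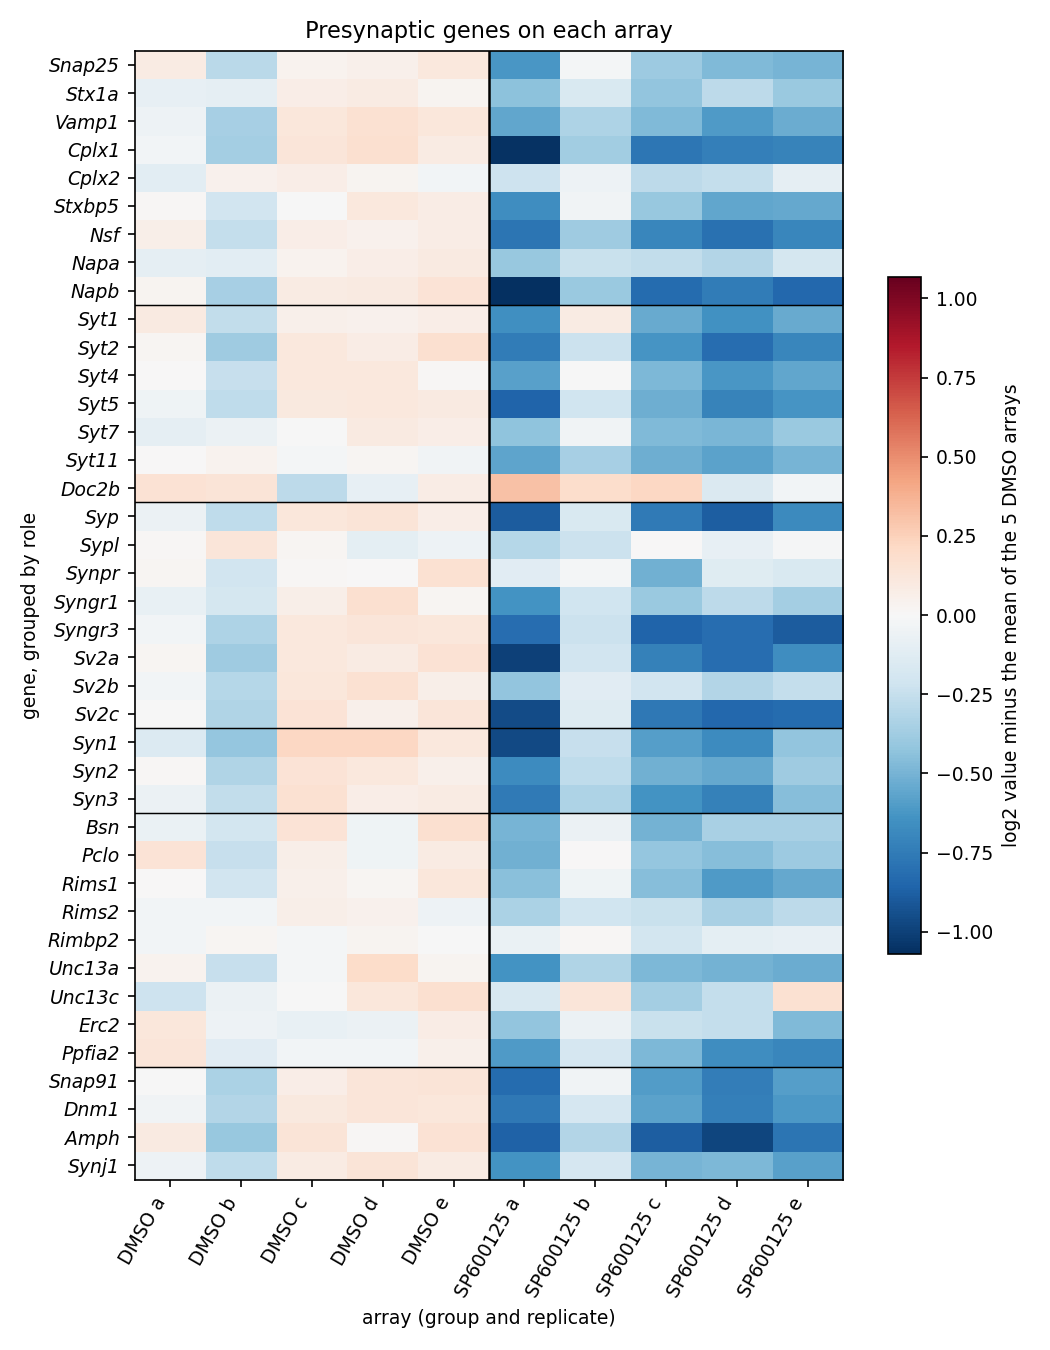
Each cell is the log2 value of 1 presynaptic gene (vertical axis, grouped by role) on 1 array (horizontal axis) minus that gene's mean over the 5 DMSO arrays, with blue for lower and red for higher. DMSO b is paler blue across most genes, at a median of -0.25, and SP600125 b is the palest SP600125 array, at -0.18.

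Among the SNARE proteins and their regulators, 9 genes were measured and all 9 fell, with a median of -0.44. The largest fall was that of Napb, the brain form of the SNAP adaptor that recruits NSF to spent SNARE complexes. Napb measured 7.70, 7.32, 7.76, 7.77 and 7.82 on DMSO a to e and 6.60, 7.27, 6.85, 6.92 and 6.83 on SP600125 a to e. The groups did not overlap, but the b arrays were 0.04 apart while the other letters differed by 0.85 to 1.10. The change was -0.78 (SE 0.11, adjusted p = 0.0003 by limma, n = 5 a group), a signal 41.6% lower, and -0.96 without the b arrays.

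Nsf, the ATPase that takes SNARE complexes apart, measured 9.69, 9.37, 9.70, 9.67 and 9.71 in DMSO and 8.84, 9.25, 8.93, 8.83 and 8.93 in SP600125. Every SP600125 array was below every DMSO array, with the b arrays nearest to each other. Nsf fell by 0.67 (SE 0.09), or 37.2%. Cplx1, a complexin that binds the assembled SNARE complex, measured 8.93, 8.60, 9.09, 9.13 and 9.04 in DMSO and 7.90, 8.59, 8.19, 8.23 and 8.25 in SP600125. Its groups too were separate, but by a margin of 0.01 between the b arrays. Cplx1 fell by 0.73 (SE 0.11, or 39.6%).

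The SNARE proteins themselves had smaller estimates than Napb, Nsf and Cplx1. Snap25, the plasma membrane SNARE, measured 9.18, 8.80, 9.13, 9.15 and 9.21 in DMSO and 8.47, 9.07, 8.70, 8.62 and 8.60 in SP600125. Its groups overlapped, because SP600125 b lay above DMSO b. Snap25 fell by 0.40 (SE 0.11, adjusted p = 0.00817 by limma), Stx1a, the syntaxin partner of Snap25, fell by 0.34 (SE 0.07), and Vamp1, a vesicle SNARE, fell by 0.50 (SE 0.09). Stxbp5, the syntaxin-binding protein tomosyn, fell by 0.44 (SE 0.11), and Napa, the widely expressed SNAP adaptor, fell by 0.28 (SE 0.06).

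Cplx2, the other complexin among the 40 genes, had the weakest call of the 35. It measured 6.93, 7.09, 7.11, 7.07 and 7.02 in DMSO and 6.82, 6.99, 6.77, 6.79 and 6.95 in SP600125. Its groups overlapped, because SP600125 b and e lay above DMSO a. The change was -0.18 (SE 0.07, adjusted p = 0.0377 by limma). The call was lost without any one of DMSO b, c, d or e or SP600125 a, c or d, where the adjusted p ran from 0.0611 to 0.0916. It was also lost with replicate letters as a block (adjusted p = 0.0602) and after cyclic loess (change -0.05, adjusted p = 0.607).

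The role called calcium sensors holds 7 genes, and Syt11 is counted there although it lacks calcium binding. Of the 7, 6 fell, with a median over all 7 of -0.46. Syt2, one of the fast synaptotagmins that trigger release, measured 7.10, 6.70, 7.19, 7.16 and 7.25 in DMSO and 6.33, 6.85, 6.45, 6.26 and 6.38 in SP600125. Only SP600125 b reached into the DMSO range, where it passed DMSO b. Syt2 fell by 0.62 (SE 0.12, adjusted p = 0.00117 by limma), or 35.1%.

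Syt1, the main fast calcium sensor of forebrain synapses, had the largest rise at letter b. Its values were 9.90, 9.54, 9.86, 9.86 and 9.88 in DMSO and 9.15, 9.90, 9.27, 9.16 and 9.27 in SP600125. SP600125 b lay within the range of the DMSO arrays a, c, d and e, and DMSO b was well under the other DMSO arrays. Over all arrays Syt1 fell by 0.46 (SE 0.13), and without the b arrays by 0.66.

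Syt11, a synaptotagmin that lacks calcium binding, was lower in SP600125 at every letter, b included. It measured 10.43, 10.46, 10.41, 10.45 and 10.39 in DMSO and 9.87, 10.08, 9.90, 9.86 and 9.93 in SP600125. DMSO b was here the highest DMSO array, and the groups were 0.32 apart at their nearest. The means were 10.43 ± 0.03 and 9.93 ± 0.09 (SD, n = 5 each). Syt11 fell by 0.50 (SE 0.06), with the smallest adjusted p among the presynaptic genes (8.74e-05, limma), and by 0.53 without the b arrays.

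Among the other synaptotagmins, Syt5 fell by 0.59 (SE 0.11), Syt4, a form of dense-core vesicles, fell by 0.45 (SE 0.11), and Syt7, a slow high-affinity sensor, fell by 0.37 (SE 0.09). Doc2b, a cytosolic calcium sensor for spontaneous and asynchronous release, was the exception. It measured 5.76, 5.75, 5.33, 5.52 and 5.68 in DMSO and 5.92, 5.79, 5.83, 5.45 and 5.58 in SP600125. The groups overlapped through most of their range. Its change was 0.11 (SE 0.08, adjusted p = 0.291 by limma), the one estimate above 0 among the 40.

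Of the 8 vesicle membrane genes 6 fell, with a median of -0.53. Syngr3, a synaptogyrin, measured 8.97, 8.67, 9.12, 9.13 and 9.12 in DMSO and 8.19, 8.77, 8.14, 8.19 and 8.11 in SP600125. On 4 of 5 SP600125 arrays it lay between 8.11 and 8.19, and SP600125 b alone overlapped DMSO. Syngr3 fell by 0.72 (SE 0.12), or 39.3%, and by 0.93 without the b arrays.

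Syp, synaptophysin, the most used marker of synaptic vesicles, measured 9.41, 9.20, 9.59, 9.61 and 9.54 in DMSO and 8.58, 9.31, 8.72, 8.59 and 8.79 in SP600125. SP600125 b again exceeded DMSO b, while all other SP600125 arrays lay below DMSO. Syp fell by 0.67 (SE 0.13). The SV2 glycoproteins of the vesicle membrane also fell, Sv2c by 0.70 (SE 0.14), Sv2a by 0.68 (SE 0.13) and Sv2b by 0.26 (SE 0.08). Syngr1, another synaptogyrin, fell by 0.38 (SE 0.08), while Syngr2, which is not among the 40 genes, changed by -0.03 (adjusted p = 0.698, limma).

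The relatives of synaptophysin did not pass the test. Sypl, a widely expressed synaptophysin-like gene, measured 7.53, 7.65, 7.53, 7.41 and 7.46 in DMSO and 7.21, 7.28, 7.52, 7.43 and 7.50 in SP600125. Its lower SP600125 values were those of batch 1, and the batch 2 values lay within the DMSO range: its change was -0.34 in batch 1 (adjusted p = 0.0358, limma) and 0.01 in batch 2. Synpr, synaptoporin, was dim at 4.79, 4.57, 4.79, 4.77 and 4.93 in DMSO and 4.65, 4.75, 4.25, 4.64 and 4.60 in SP600125. Its groups overlapped, and its change of -0.19 (adjusted p = 0.100, limma) became -0.28 without the b arrays (adjusted p = 0.0242).

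All 3 synapsins, which tether vesicles in the reserve pool, fell. Syn3 measured 7.86, 7.66, 8.09, 8.00 and 8.02 in DMSO and 7.17, 7.60, 7.29, 7.20 and 7.47 in SP600125. Its groups were separate, by 0.06 between the b arrays. Syn3 fell by 0.58 (SE 0.09), Syn1 by 0.58 (SE 0.12) and Syn2 by 0.48 (SE 0.09).

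The active zone genes had the smallest median of the roles, -0.35, and 7 of 9 fell. Ppfia2, a liprin that recruits other scaffold proteins, measured 8.01, 7.77, 7.86, 7.85 and 7.94 in DMSO and 7.28, 7.71, 7.40, 7.22 and 7.19 in SP600125. The groups were separate, with 0.06 between DMSO b and SP600125 b. Ppfia2 fell by 0.53 (SE 0.09), or 30.6%.

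Unc13a, which primes docked vesicles for fusion, fell by 0.50 (SE 0.08), and of its 3 probe sets the others changed by -0.58 and -0.04. The RIM scaffold genes Rims1 and Rims2, which tie calcium channels to the release site, fell by 0.42 (SE 0.10) and 0.28 (SE 0.06). Rims2 had separate groups, at 7.27 to 7.39 in DMSO and 6.98 to 7.12 in SP600125. The giant scaffold genes Bsn (bassoon) and Pclo (piccolo) both fell by 0.35 (SE 0.09 and 0.10), and Erc2, the scaffold CAST, fell by 0.29 (SE 0.08).

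The active zone genes that did not pass were Rimbp2 and Unc13c, with means of 5.84 and 5.62 over all arrays. Rimbp2, which links RIM proteins to calcium channels, lay at 5.86 to 5.91 in DMSO and at 5.68 to 5.90 in SP600125, with a change of -0.09 (SE 0.06, adjusted p = 0.203 by limma). Unc13c, a relative of Unc13a, lay at 5.45 to 5.85 and at 5.31 to 5.83, with a change of -0.10 (SE 0.11, adjusted p = 0.455 by limma). Both ranges overlapped between the groups. The 7 probe sets of Unc13c disagreed: the others changed by -0.35 (SE 0.08), -0.20 (SE 0.06), -0.15, -0.07, 0.01 and 0.04.

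All 4 endocytosis genes fell, with a median of -0.57. Amph, amphiphysin, which brings dynamin to curved membrane, measured 8.32, 7.82, 8.37, 8.24 and 8.38 in DMSO and 7.36, 7.91, 7.34, 7.24 and 7.44 in SP600125. The b arrays were the lowest DMSO and the highest SP600125 array, and they crossed. Amph fell by 0.76 (SE 0.13), or 41.2%, and by 0.98 without the b arrays. Dnm1, the neuronal dynamin that cuts vesicles from the membrane, fell by 0.57 (SE 0.11), Snap91, the clathrin adaptor AP180, by 0.56 (SE 0.13), and Synj1, the lipid phosphatase that helps uncoat vesicles, by 0.47 (SE 0.09).

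**Figure D2:**
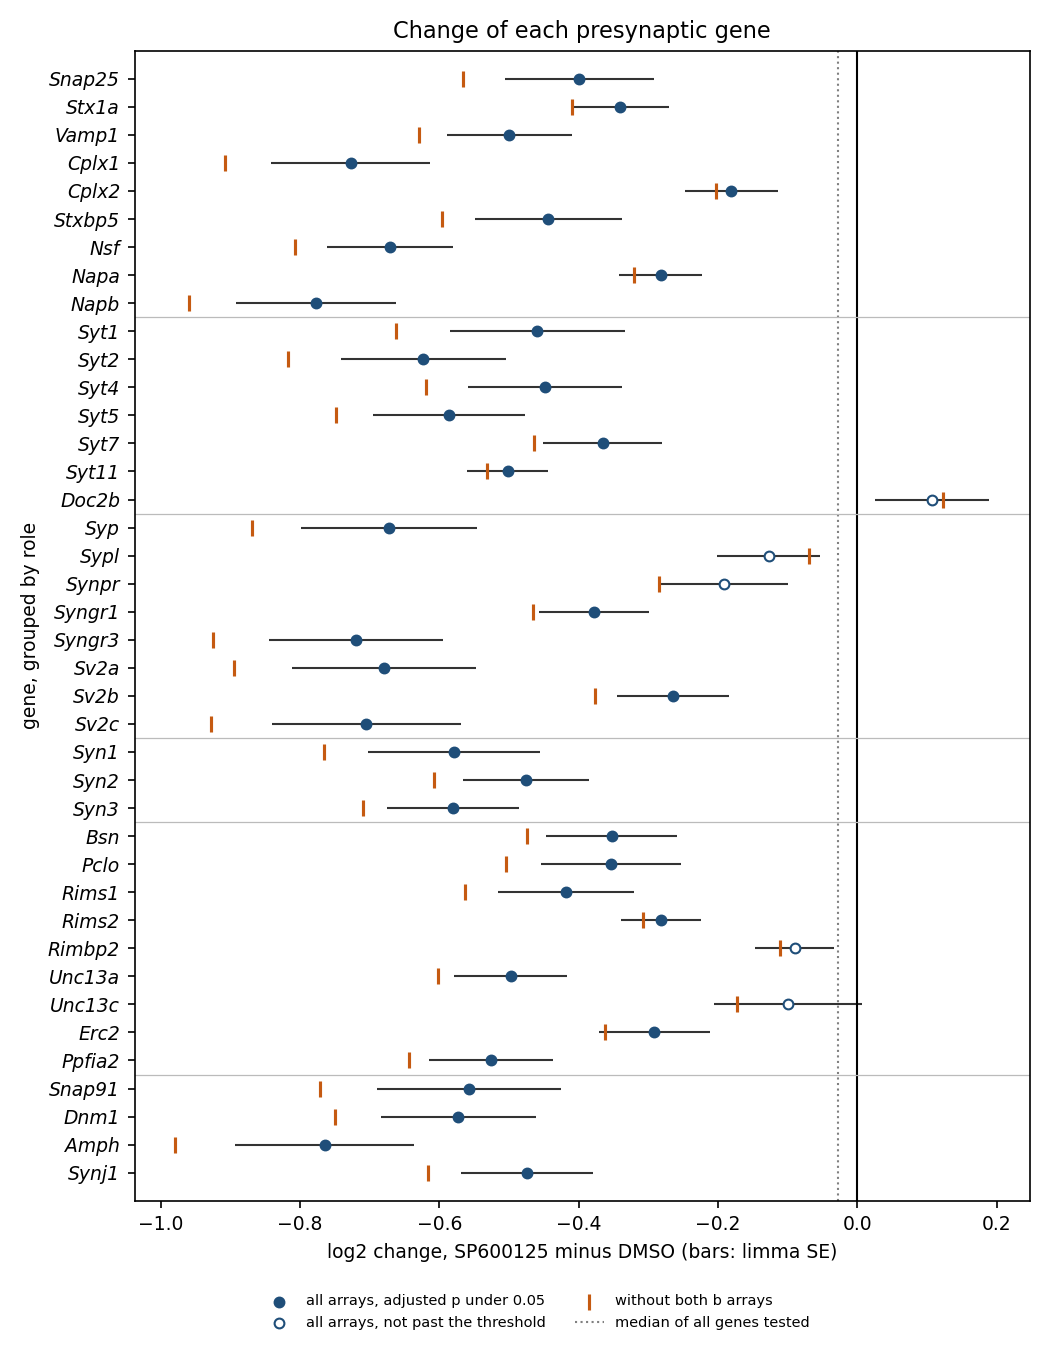
Points are the log2 change of each presynaptic gene (SP600125 minus DMSO, all 10 arrays) with the limma SE as bars, filled where the adjusted p was under 0.05, and orange ticks are the change without both b arrays. Filled points run from -0.78 for Napb to -0.18 for Cplx2, and the ticks lie further left for most genes, with a median of -0.61 against -0.47.

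The groups were fully separate, with each SP600125 array below each DMSO array, for 11 of the 40 genes, against 16.4% of all genes. Those were Stx1a, Cplx1, Nsf, Napa and Napb among the SNARE genes, Syt11, Syngr1, Syn3, and the active zone genes Rims2, Unc13a and Ppfia2. No endocytosis gene was among them. Without the b arrays 36 of the 40 genes were separate, against 28.2% of all genes. By role these were 8 of 9 SNARE genes, 6 of 7 calcium sensors, 7 of 8 vesicle membrane genes, 3 of 3 synapsins, 8 of 9 active zone genes and 4 of 4 endocytosis genes.

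Differences between arrays of the same letter are given as a description, since nothing shows that a letter pairs 2 arrays. The median over the presynaptic genes was -0.67 for letter a, -0.56 for c, -0.65 for d and -0.56 for e, but 0.08 for b. For letter a, 38 of 40 genes were lower in SP600125, where 50.5% of all genes were. For letter b 15 were lower, where 48.8% of all genes were, and 25 were higher. The largest falls at letter b were Syt11 at -0.39, Sypl at -0.36 and Rims2 at -0.18. The largest rises there were Syt1 at 0.35, Snap91 at 0.30, Snap25 at 0.27 and Pclo at 0.25.

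**Figure D3:**
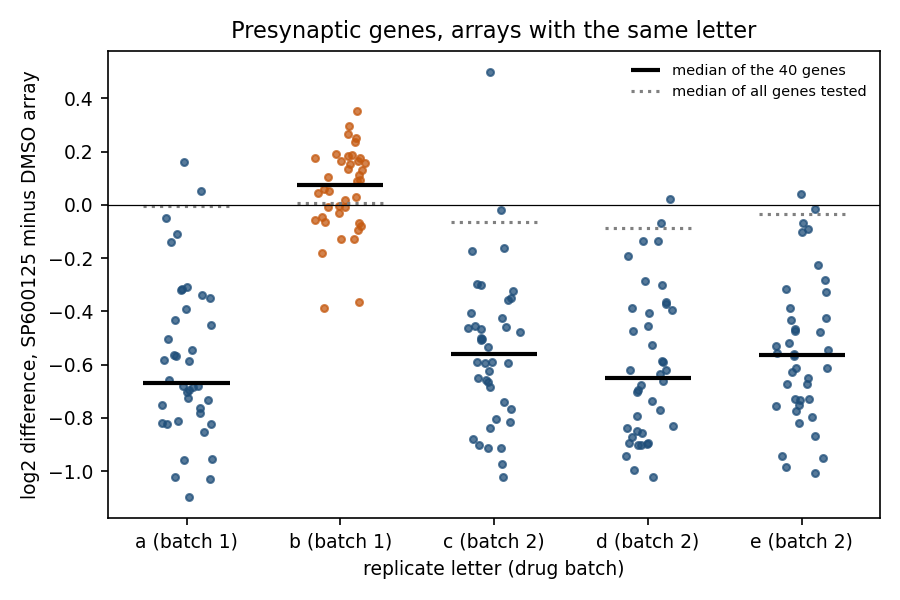
Each point is 1 presynaptic gene, the vertical axis is the log2 value on the SP600125 array minus that on the DMSO array of the same letter, and bars mark the median of the 40 genes. Letters a, c, d and e have medians of -0.67 to -0.56, and letter b, in orange, has 0.08.

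Both b arrays contributed. DMSO b was below DMSO a for 34 of the 40 genes, at a median of -0.24, where 46.6% of all genes were lower, and all genes had a median of 0.02. SP600125 b was above SP600125 a for 39 of the 40, at a median of 0.43, where 57.1% of all genes were higher, and all genes had a median of 0.03. Genes with larger falls in batch 2 (arrays c to e) also had larger gaps between the b and a arrays of batch 1, although the arrays compared are not the same. Across the 40 genes the batch 2 change had a Pearson r of 0.759 with DMSO b minus DMSO a and of -0.823 with SP600125 b minus SP600125 a. Over all genes these were 0.499 and -0.501. With the change at letter a it had an r of 0.892 (0.794 over all genes). With the change at letter b the r was -0.313, and over all genes it had the opposite sign, 0.365. Genes are not independent replicates and share arrays, so these values carry no p.

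**Figure D4:**
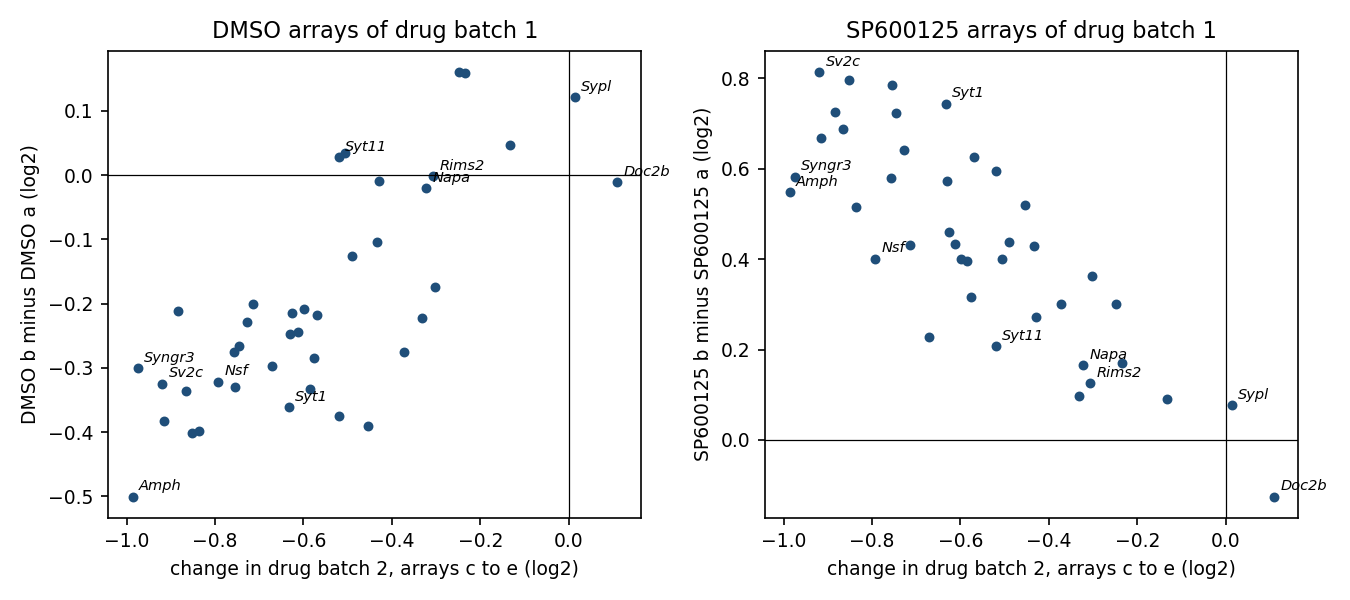
Each point is 1 presynaptic gene, the horizontal axes give its log2 change in drug batch 2, and the vertical axes give replicate b minus replicate a in DMSO (left) and in SP600125 (right). The points rise to the right in DMSO (r 0.759) and fall to the right in SP600125 (r -0.823), with Syt11 near 0 on the left.

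By drug batch, the median change was -0.27 in batch 1 and -0.59 in batch 2. In batch 2, 36 of the 40 genes fell, against 25.1% of all genes. In batch 1, which holds the b arrays, 4 did, against 7.2% of all genes: Nsf, Napb, Syt11 and Sypl. Syngr3 changed by -0.34 in batch 1 and -0.97 in batch 2, and Amph by -0.43 and -0.99. Syt11 changed by -0.48 and -0.52.

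The difference between the batches did not pass the test itself. The interaction of treatment and batch was past the threshold for 0 of the 40 genes and 0% of all genes (limma). At an unadjusted p under 0.05 it was past for 12 of the 40 and 1852 of the 19938. Its estimate was negative for 38 of the 40, with a median of -0.34. Syngr3 had the smallest unadjusted p, 0.00626, with an adjusted p = 0.484. Batch 2 against batch 1 apart from treatment passed for 0 of the 40 genes and 0.722% of all genes. Doc2b alone had an unadjusted p under 0.05 there, 0.0121, with an adjusted p = 0.206 by limma.

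Signal level and scaling moved with the falls. Over all genes, the share that fell rose from 13.8% at a mean signal of 5 to 6 to 66.3% at 8 to 9, and most presynaptic genes were bright. In each band the presynaptic median lay below that of all genes. From 7 to 8 it was -0.42 against -0.22, with 10 of 11 genes lower where 60.6% of all genes were. From 8 to 9 it was -0.48 against -0.24, with 12 of 12 lower, and from 9 to 10 it was -0.67 against -0.21, with 7 of 7 lower where 64.4% of all genes were. The share of the falls that scaling could make was not tested beyond the alternatives given here.

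Cyclic loess, which equalises the arrays at each signal level, left 27 of the 40 genes lower and 0 higher, with a median of -0.31, against 17.7% lower and 9.44% higher of all genes. Without the b arrays 32 were lower after it, with a median of -0.41, against 20.5% of all genes. The 9 genes that lost the call were Snap25, Stx1a, Cplx2, Napa, Syngr1, Pclo, Rims1, Rims2 and Erc2, and Synpr gained it at -0.35 (adjusted p = 0.0153, limma). By role, 5 of 9 SNARE genes and 3 of 9 active zone genes were past the threshold after cyclic loess. So were 6 of 7 calcium sensors, 6 of 8 vesicle membrane genes (Synpr among them), 3 of 3 synapsins and 4 of 4 endocytosis genes.

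**Figure D5:**
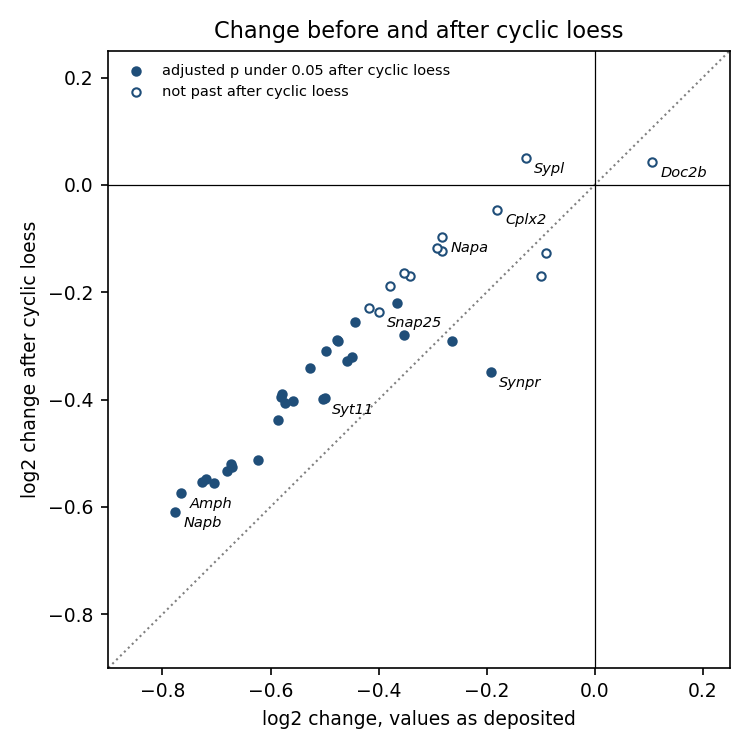
Each point is 1 presynaptic gene, with its log2 change in the values as deposited on the horizontal axis and after cyclic loess on the vertical axis, filled where the adjusted p after loess was under 0.05. The dotted line marks equal values, and most points lie above it, nearer to 0, with a median of -0.31 against -0.47.

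Relatives within a gene family had unequal changes in several cases. Cplx1 changed by -0.73 and Cplx2 by -0.18, Napb by -0.78 and Napa by -0.28, and Sv2a by -0.68 and Sv2b by -0.26. The 30 pairs in 10 families, formed after the values were seen, were compared by an exact two-sided permutation test of the log ratio on each array. Unlike the limma fits, this test had no term for drug batch. None of the 30 passed after Benjamini-Hochberg adjustment, with a smallest adjusted p = 0.0649, and 14 had an unadjusted p under 0.05. The smallest p that the 252 arrangements allow is 0.00794. With 30 pairs, a pair could therefore pass only if several others also had a small p, whatever the size of its difference. Unequal changes within these families were thus not established by this test at this number of arrays.

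Other genes of the presynaptic pathway, from a list of 74 of which 70 were measured, had a smaller median change. Of these 44 fell, 2 rose and 24 did not pass, with a median of -0.27, against 29.9% lower and 17% higher of all genes. Among all genes at a mean signal of 7 to 8, 60.6% fell, with a median of -0.22. At 8 to 9, 66.3% fell, with a median of -0.24. The largest falls among the other presynaptic genes were those of Apba1, the adaptor Mint1, and Rab3c, a vesicle GTPase, both -0.62 (SE 0.12). Next were Cltb, a clathrin light chain, at -0.60 (SE 0.08), and Brsk2, a kinase of neuronal polarity, and Rab3b, another vesicle GTPase, both -0.58 (SE 0.10 and 0.12). The genes that rose were Cplx3, a complexin of retinal ribbon synapses, by 0.35 (SE 0.08), and Ppfia1, a widely expressed liprin, by 0.16 (SE 0.05). Cplx3 was dim, at 4.35 to 4.71, and all genes under 5 had a median change of 0.12. After cyclic loess Cplx3 no longer passed (adjusted p = 0.125, limma), and 28 fell and 4 rose, against 17.7% lower and 9.44% higher of all genes. Without the b arrays 46 fell and 1 rose, Cplx3, against 31.6% lower and 17.1% higher of all genes. At letter b the median of these 70 genes was 0.07, and in batch 2 it was -0.28.

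Markers of neurons and of other cells were read on the same arrays, where 29.9% of all genes fell and 17% rose. By mean signal, 41.1% of all genes fell at 6 to 7, 60.6% at 7 to 8 and 66.3% at 8 to 9. Of 10 neuron markers 9 fell, with a median change of -0.50, where the presynaptic genes had -0.47. A fall of this size was thus not particular to the presynaptic genes. The lowest DMSO mean (8.73) and the highest SP600125 mean (8.94) of the neuron markers were those of the b arrays. The marker that did not pass was Map2, at 10.36 to 10.58 in DMSO and 10.32 to 10.60 in SP600125. Its change was -0.08 (adjusted p = 0.365, limma). Tubb3, the neuronal tubulin, changed by -0.54 and was 9.49 on DMSO b and 9.81 on SP600125 b. Astrocyte markers (5 of 10 lower, 1 higher) had means of 8.27 to 8.34 in DMSO and 8.15 to 8.25 in SP600125. Oligodendrocyte lineage markers (4 of 9 lower) had 6.90 to 6.99 and 6.79 to 6.88, and fibroblast and endothelial markers (4 of 10 lower) had 7.97 to 8.08 and 7.75 to 7.87. Within that last list, DMSO values differed widely, from 4.53 to 5.02 for Pecam1 to 10.93 to 11.07 for Col3a1.

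DMSO b had the highest DMSO mean of the astrocyte, oligodendrocyte and fibroblast markers, at 8.34, 6.99 and 8.08. Dim signals were higher in SP600125 in general. The olfactory receptor median was 3.63 in DMSO and 3.87 in SP600125, and all genes under 5 had a median change of 0.12. The part of that shift in the rises given next was not tested. Microglial markers (4 of 8 higher, with a median change of 0.16) had means of 4.41 to 4.60 in DMSO and 4.61 to 4.80 in SP600125. Of the 8, 6 lay under the olfactory receptor 95th percentile, including Aif1, Csf1r and P2ry12. Pluripotency markers had 3 of 6 higher (Nanog, Klf4 and Dppa5a), with means of 4.84 to 5.19 in DMSO and 5.20 to 5.31 in SP600125, and 4 of the 6 lay under that percentile. Neural progenitor markers had 2 of 8 lower (Nes and Vim), with means of 8.68 to 8.72 and 8.45 to 8.55. The part of these other cells in the presynaptic changes was not tested.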

How the data were processed

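Total RNA of 10 samples was hybridised to 1 array each, per the labels' protocols. The deposited table holds log2 values of 35556 probe sets, and the submitters' processing notes name oligo 1.14.0. How the authors corrected background, normalized and summarized probes is not given in the sources used here. The log2 scale was inferred from the range (1.90 to 13.83). Where background remains in such values, the changes of dim genes can be understated, which was not tested. Values were used as deposited.

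Gene names came from the platform annotation. Of the probe sets 21789 carried 1 symbol, and the one with the highest mean stood for each of 19938 genes. Two-sided limma tests (version 3.58.1, R 4.3.3, lmFit then eBayes) had treatment and drug batch as terms, 7 residual degrees of freedom, and Benjamini-Hochberg adjustment over all genes. The fit was tested on simulated data. All 41 listed genes were to be named. The members, lists and alternatives were chosen with earlier results of these data known. Alternatives were other scalings, dim-gene filters, variance settings, batch terms and left-out arrays. Same-letter arrays did not deviate together (r from -0.21 to 0.10), so letters were not taken to pair arrays.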

Additional observations from a re-analysis of the deposited data

Results flagged for a closer look

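For the 40 presynaptic genes in each group of 5 arrays, an array was singled out where its gap to the nearest other array, divided by the group's range, was above Dixon's 95% critical value. This held in 18 of 80 cases, and chance gives about 1 in 20, or 4. In 8 cases DMSO b was the lowest DMSO array: Snap25 at 8.80, Nsf at 9.37, Napb at 7.32, Syt1 at 9.54, Syt2 at 6.70, Sv2a at 9.22, Syn2 at 8.08 and Amph at 7.82. The nearest DMSO array was at 9.13 for Snap25, 9.67 for Nsf and 9.86 for Syt1.

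In 9 cases SP600125 b was the highest SP600125 array: Nsf at 9.25, Syt1 at 9.90, Syt4 at 9.87, Syt7 at 7.20, Syp at 9.31, Syngr3 at 8.77, Sv2c at 9.41, Pclo at 8.21 and Rims1 at 7.89. The nearest SP600125 array was at 9.27 for Syt1, 8.19 for Syngr3 and 8.79 for Sv2c. The last case was Synpr, with SP600125 c lowest at 4.25 and the nearest array at 4.60. The 40 genes share arrays, so these cases are not independent of each other.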

How the results depend on the processing

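No presynaptic gene that passed the test reversed under the 23 alternatives, and 5 of the 40 kept their side of the threshold under every one. Leaving out 1 array at a time gave 34 to 35 genes lower and a median change of -0.57 to -0.42. Within drug batch 1, 4 genes were lower with a median of -0.27, and 6 of the 70 other presynaptic genes were lower, against 7.2% of all genes. Those other genes counted 28 lower after cyclic loess, against 17.7% of all genes. Leaving out 1 array gave 0 to 1 genes past the threshold for batch 2 against batch 1, and the 1, without SP600125 b, was Syn1. Quantile normalization gave 33 lower (median -0.36), median centring 38 (-0.57, with all genes at -0.13) and centring on named genes 34 (-0.43). Over all genes, lower against higher calls were 5962 to 3389 as deposited, 4494 to 1497 after quantile normalization, 8602 to 1500 after median centring, 3537 to 1882 after cyclic loess and 5052 to 4455 after centring on named genes. With replicate letters as a block, 34 genes were lower, and the pairing of letters was not shown. Sypl passed after median centring (-0.23, adjusted p = 0.0217 by limma). The cause of these shifts was not tested. Without detection calls, dim genes such as Synpr have no stated background.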
